A study of Mus musculus with 9 samples.

Results

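Mouse bone marrow-derived Mϕs treated with IL-4 were compared, gene by gene, with Mϕs that received no IL-4. The genes described are the 12622 of 53379 in the table whose mean over the 3 control and 3 IL-4 libraries was at least 0.5 FPKM (fragments per kilobase of exon and per 1000000 fragments, a level that is comparable between genes because it is divided by length). They are grouped here by what their products do. In all conditions BM cells of C57BL/6 mice were grown in CSF-1 at 10 ng/ml for 3 days to become Mϕs, and CSF-1 then stayed in the medium for the 4 days of treatment. Control Mϕs received nothing more, IL-4-treated Mϕs received IL-4 at 10 ng/ml, and a further group, used for comparison, received IL-6 at 100 ng/ml. Each group has 3 libraries of polyadenylated RNA, and numbers #1 to #3 mark the mouse. The methods state a higher IL-4 concentration than the labels do, and the legends a shorter treatment, so the exact exposure is not settled.

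IL-4 is the main cytokine of type 2 immunity. It binds the IL-4 receptor α chain (Il4ra), which pairs on Mϕs with the common γ chain (Il2rg) or with Il13ra1, and Janus kinases on these chains phosphorylate STAT6. STAT6 enters the nucleus and turns on the genes of the alternatively activated (M2) state, among them arginase, chitinase-like proteins, resistin-like proteins and lectins, and SOCS proteins switch the signal off again. The comparison asks which parts of the Mϕ transcript pool, beyond these known genes, moved with IL-4.

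The libraries held 29988160 to 39909571 fragments. IL-4 #3 stood apart from the other IL-4 libraries. On the second principal component it scored -40.0, against 52.8 and 47.1 in IL-4 #1 and #2, and its median-ratio scaling factor was 0.780. The difference followed gene length. Against the mean of IL-4 #1 and #2, the median log2 difference of IL-4 #3 was 0.40 in the shortest quartile of genes by exon length (12 to 1925 bases) and -0.96 in the longest (6087 to 41324 bases). Control #1 went the other way within its group, at -0.20 and 0.35. Results that rest on IL-4 #3 are therefore given with and without it. Markers of intestinal Paneth and goblet cells summed to 44.9 to 59.0 FPKM in the control libraries and 39.2 in IL-4 #1, but to 0.0139 and 0.0340 in IL-4 #2 and #3, so IL-4 #1 is the only IL-4 library that shares them with the controls and is also compared alone. Skeletal muscle markers summed to 2.95 FPKM in IL-4 #1, at most 13.9 in IL-4 #2 and #3 and 6.22 to 8.93 in controls. Tnni2 had the highest level of them in controls, 4.34 to 6.97 FPKM, and stood at 0.879 to 1.96 with IL-4. Several others were higher in IL-4 #2 and #3 only. Mylpf stood at 4.19 and 3.19 FPKM there, 0.441 in IL-4 #1 and 0.378 to 0.778 in controls. Acta1 stood at 2.26 and 2.41, 0.381 and 0.223 to 0.578 in the same order. Ryr1 was higher in IL-4 #1 as well, at 0.727 FPKM. What part these transcripts play in the results was not tested.

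**Figure D1:**
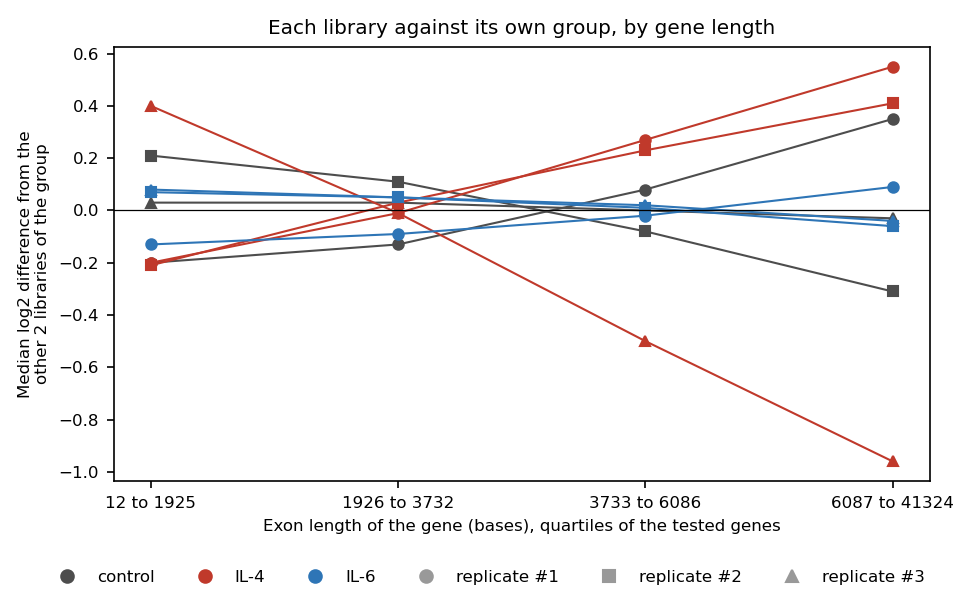
Median log2 difference of each library from the other 2 libraries of its group (vertical axis), in quartiles of tested genes by exon length in bases (horizontal axis); color marks the group and symbol shape the replicate number. IL-4 #3 falls from 0.40 in the shortest to -0.96 in the longest genes, while the IL-6 libraries stay between -0.13 and 0.09.

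The cells carried the defining markers of Mϕs in every library, though several at a lower level with IL-4. All 15 Mϕ markers were tested, and 6 were called lower and 0 higher. Their summed level was 20300 to 24000 FPKM in controls and 8460 to 10400 with IL-4. Csf1r, the CSF-1 receptor, stood at 751, 574 and 569.6 FPKM in Control #1 to #3 and at 361, 306 and 168 in IL-4 #1 to #3, and its call was lost without IL-4 #3 (-1.24 with it and -0.91 without). Lyz2, lysozyme, stood at 13786–16064 FPKM in controls and at 4479–5734 with IL-4. Cd68 (1311–1642 and 785–957), Spi1 and Tyrobp were not called. Granulocyte markers were lower as a group: 10 of 12 were called lower, and their sum went from 4790 to 8530 FPKM in controls to 2170 to 4000 with IL-4. Of 5 tested mast cell and basophil markers 4 were called higher, with a sum of 13.1 to 29.6 FPKM in controls and 49.5 to 82.6 with IL-4, while Tpsb2 and Mcpt4 were at 0 in all 6 libraries. Most T-cell and NK-cell genes were low, but several were higher in the IL-4 libraries. Cd3d stood at 0.0631–0.184 FPKM in controls and 0.306–1.17 with IL-4, and Cd8a at 0.063–0.147 and 0.434–0.925. Cd3e (at most 0.291 FPKM) and Ncr1 (at most 0.247) overlapped between the groups. Cd5 went the other way, from 0.322–0.415 FPKM in controls to 0.0606–0.099 with IL-4. Cd3d, Cd8a, Cd3e, Ncr1 and Cd5 were too low to be tested. Gzma, the only NK-cell marker tested, was not low with IL-4 and is described below. Of the 3 T-cell markers that were tested, Trac and Lck were called higher at low levels, up to 1.13 and 1.01 FPKM, and Cd28 fell from 23.3 to 37.2 FPKM in controls to 1.13 to 4.94 with IL-4. Eosinophil markers gave 2 falls among 4 tested, dendritic cell markers 1 among 3, megakaryocyte markers 3 among 6, and endothelial markers 1 rise among 3 (Vwf). B-cell (7 tested) and erythroid (3 tested) markers gave 0 calls, and 0 fibroblast and 0 enterocyte markers reached the level needed for a test. Among the Paneth and goblet cell markers 3 of 11 were called lower, and among the muscle markers 1 of 5 was called higher and 1 lower. In such bulk samples fewer cells of a type and less RNA per cell cannot be told apart.

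IL-4 changed 1782 of the 12622 tested genes (14.1%) when a limma adjusted p under 0.05 was combined with a log2 fold change of 1 or more in either direction. Such a gene is termed called. Of these, 681 rose (5.40% of tested genes) and 1101 fell (8.72%). In all 681 genes called higher the 3 IL-4 libraries lay above the 3 control libraries, and 1099 of the 1101 called lower had the IL-4 libraries below. The rises were larger than the falls: 296 rises and 286 falls reached a log2 fold change of 2, 156 and 94 reached 3, and 29 and 6 reached 5. Genes called higher took up 3.52% to 4.11% of the summed TPM (transcripts per 1000000, a level per length that adds to the same total in each library) in the control libraries and 22.1% to 23.6% in the IL-4 libraries. Without IL-4 #3, 886 genes were called higher (7.02%) and 984 lower (7.80%), of which 634 and 852 were among the genes called with it. IL-4 #1 alone against the controls gave 845 higher (6.69%) and 894 lower, and every gene called with all libraries had the same sign there. For the 681 and 1099 genes whose IL-4 libraries all lay beyond the controls, that sign was implied, because IL-4 #1 is one of these libraries. It is therefore no separate check. The median log2 fold change over all tested genes was -0.185. It was -0.007 after median-ratio rescaling, which gave 861 genes higher and 849 lower, so the split between rises and falls depends on the scaling.

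Against IL-6, the direct test called 2471 genes (19.6%), 937 higher with IL-4 (7.42%) and 1534 lower (12.2%). The values against IL-6 given below come from this test. Log2 fold changes are on the scale of log2(FPKM + 0.1), which understates the change of genes of low level.

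**Figure D2:**
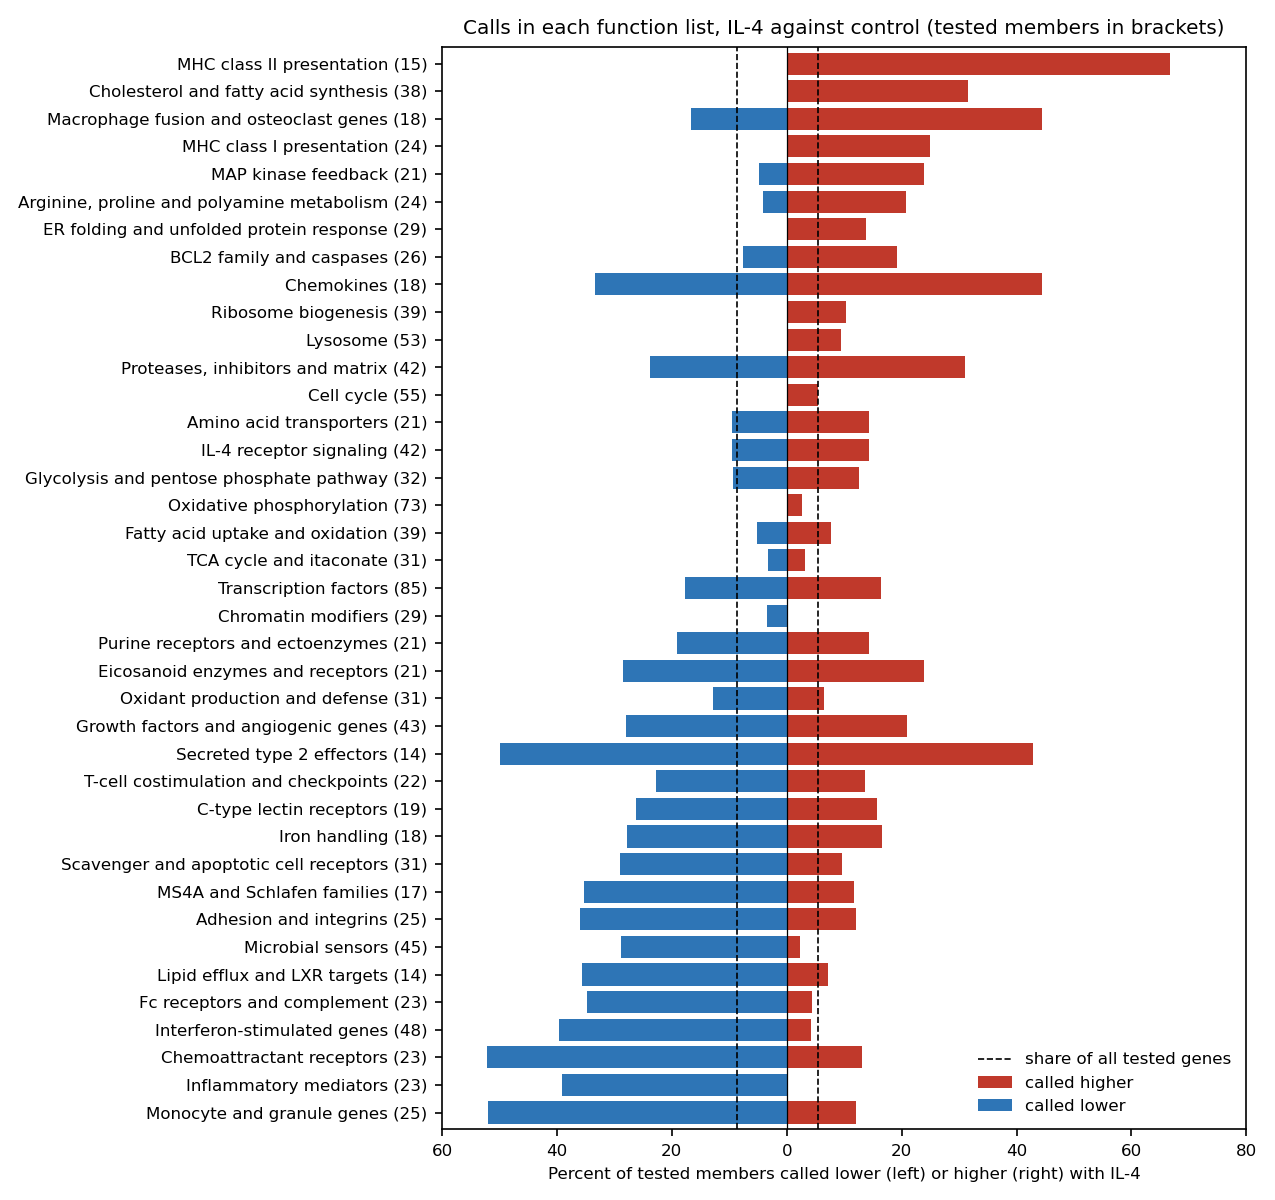
Percent of the tested members of each of the 39 function lists that were called lower (left) or higher (right) with IL-4 against control, with the number of tested members in brackets; dashed lines mark the 8.72% lower and 5.40% higher among all tested genes. MHC class II genes have the highest share of rises, 10 of 15, and chemoattractant receptors and monocyte and granule genes the highest shares of falls.

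The chains of the IL-4 receptor itself did not rise. Il4ra had 30.6, 29.7 and 27.6 FPKM in Control #1 to #3 and 19.6, 19.1 and 14.3 in IL-4 #1 to #3, a log2 fold change of -0.73 (SE 0.14, limma adjusted p = 0.0059) that is under the fold threshold although the groups do not overlap. With IL-6 it was at 99.03–109 FPKM, and IL-4 minus IL-6 was -2.55. Il2rg was at 24.02–25.8 FPKM in controls and 14.9–18.1 with IL-4 (log2 fold change -0.63). Il13ra1, the partner chain that also binds IL-13, fell from 11.1, 7.77 and 8.0 to 3.901, 3.37 and 1.53 FPKM (-1.66, SE 0.32, limma adjusted p = 0.0068). It was called without IL-4 #3 as well, at -1.26. The kinase genes Jak1 (-0.28) and Jak3 (-0.89) and Stat6 (-0.36) were not called, and Stat6 stood at 67.1, 56.5 and 60.7 FPKM in controls and at 55.6, 58.4 and 33.3 with IL-4, where IL-4 #3 is the lowest and IL-4 #2 lies inside the control range.

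The feedback inhibitors of the same pathway rose strongly. Socs1, which binds and blocks Janus kinases, went from 1.41, 1.203 and 1.45 FPKM to 31.2, 28.2 and 21.3, 19.9 times the control mean (log2 fold change 4.20, SE 0.18, limma adjusted p = 3.35e-06). Cish, another SOCS protein, went from 0.408–0.701 to 6.75–11.4 FPKM (3.95) and Socs2 from 0.239–0.308 to 2.19–3.16 (2.91). None of the 3 overlapped the controls, and all 3 were also higher than with IL-6 (IL-4 minus IL-6 4.05, 3.70 and 2.87). Dok2, an adaptor that recruits Ras GTPase-activating protein, rose from 12.5–17.3 to 87.7–106 FPKM. Over the 42 tested genes of IL-4 receptor signaling, 6 were called higher and 4 lower, with a median log2 fold change of -0.307. Of the 4 lower, Il13ra1 alone stayed called without IL-4 #3. Jak2 and Ptpn2, a kinase and a phosphatase of the pathway, are the other genes called higher, and Ptpn2 was not called with IL-4 #1 alone. Grb2 and Ptpn6, the members of highest level that were not called, had log2 fold changes of -0.46 and -0.76.

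The 12 largest rises started from control levels between 0 and 12.6 FPKM. Arg1, Retnla, Rnase2a, Mrc1, Tlr2, F13a1 and Cd86 are passed over in this ranking. It takes only genes whose 3 IL-4 libraries all lie on the same side of the 3 control libraries. Gzma, granzyme A, a serine protease of cytotoxic lymphocyte granules, was at 0.0285, 0 and 0 FPKM in controls, which is at most 1 fragment a library, and at 27.7, 20.04 and 40.1 with IL-4. Gzmb, granzyme B, had 0 fragments in all 3 control libraries and 22.04, 14.3 and 7.26 FPKM in IL-4 #1 to #3, at least 231-fold higher with the floor set at 3 fragments a library. Other NK-cell markers were higher with IL-4 too, at levels too low to be tested: Prf1, perforin, stood at 0.0129–0.0665 FPKM in controls and 0.427–1.12 with IL-4, Eomes, a factor of cytotoxic lymphocytes, at 0–0.00803 and 0.368–0.859, and Klra8, an NK-cell receptor, at 0 in all 3 controls and 0.252–0.489. Their part in the granzyme rises was not tested. These granzyme genes lie on different chromosomes (Gzma at chr13:113093825-113100981 and Gzmb at chr14:56258838-56262260, GRCm38).

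Pdcd1lg2 encodes PD-L2, a ligand of the T-cell checkpoint receptor PD-1. It stood at 0.366, 0.243 and 0.381 FPKM in Control #1 to #3 and 93.6, 80.5 and 64.7 in IL-4 #1 to #3 (log2 fold change 7.53, SE 0.22, limma adjusted p = 1.58e-06), 241 times the control mean. With IL-6 its mean was 0.842 FPKM. Fn1, fibronectin, an extracellular matrix protein, went from 1.25, 0.873 and 1.12 to 207, 255 and 85.9 FPKM (7.14). IL-4 #3 was the lowest of the 3 IL-4 libraries. Ocstamp, a membrane protein needed for the fusion of Mϕs and osteoclasts, rose from 0.0546–0.0705 to 11.1–22.6 FPKM (6.80), and Msx3, a homeobox gene known from the neural tube, from 0–0.0142 to 10.5–12.6 (6.77).

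Ccl24, a chemokine for eosinophils, was at 2.26, 2.01 and 1.69 FPKM in controls and 250.1, 175 and 260.4 with IL-4 (6.76). Tmem26, a membrane protein, went from 0.477–1.21 to 61.3–115 FPKM and Mgl2, a galactose-binding C-type lectin, from 5.85–9.04 to 516–566. Ear2, an eosinophil-associated ribonuclease, rose from 6.02–12.6 to 537–865 FPKM. Fragments of near-identical Ear genes could be split between them by the counting, so its level is uncertain. Slc7a2, the transporter that brings arginine to arginase, had 0.521, 0.584 and 0.752 FPKM in controls and 73.1, 58.1 and 18.7 with IL-4. Its log2 fold change of 5.92 was 6.52 without IL-4 #3. Of these 12 rises, Ccl8 alone was lower with IL-4 than with IL-6. This chemokine for monocytes went from 0.0561, 0.326 and 0.948 FPKM to 22.2, 21.7 and 23.2, but reached 55.4, 123 and 97.6 in the IL-6 libraries (IL-4 minus IL-6 -1.96, limma adjusted p = 0.0396). For the other 11, IL-4 minus IL-6 lay between 4.51 for Fn1 and 8.20 for Ccl24.

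**Figure D3:**
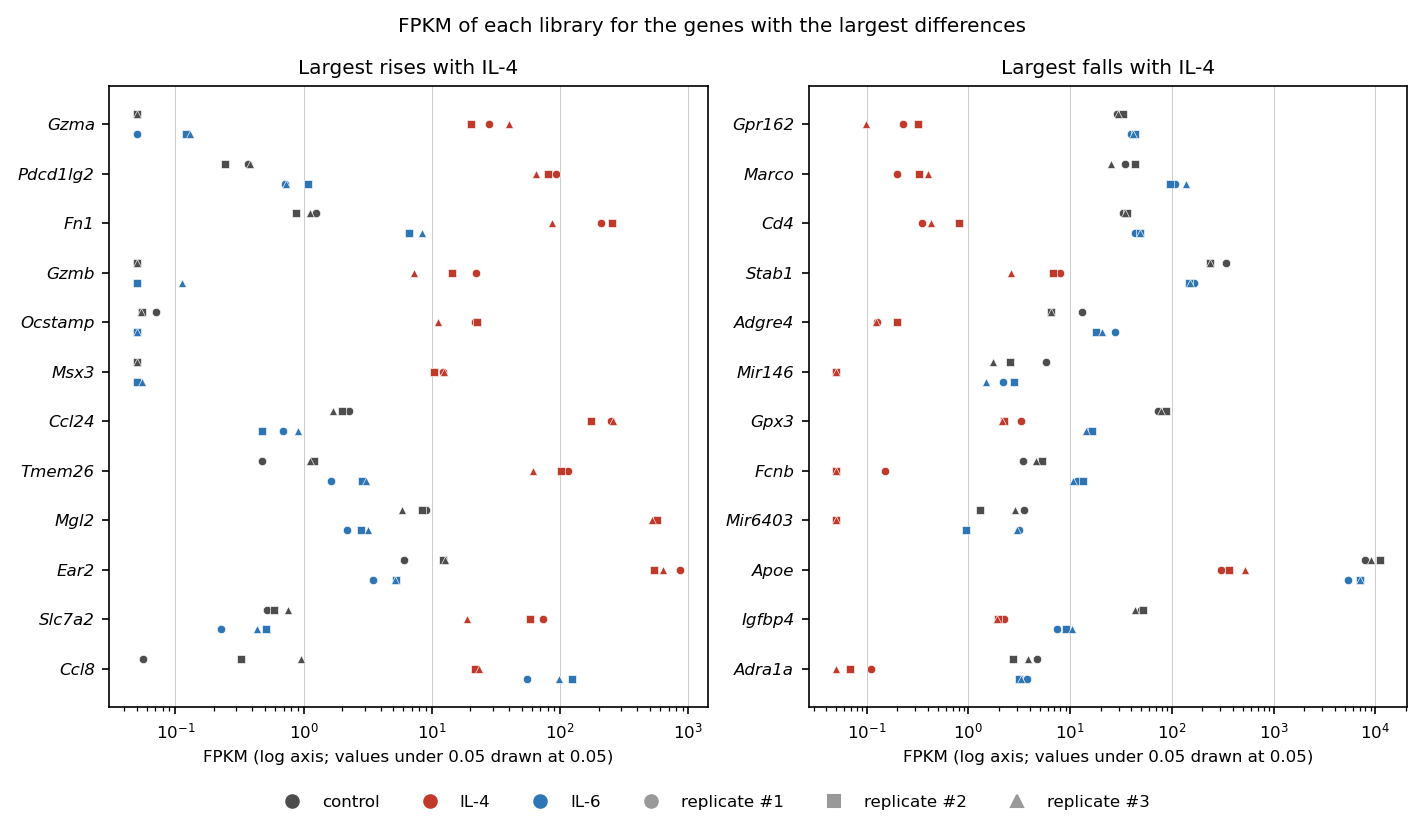
FPKM of each library on a log axis for the 12 largest rises (left) and 12 largest falls (right) with IL-4, values under 0.05 being drawn at 0.05; color marks control, IL-4 and IL-6 and symbol shape the replicate. That the IL-4 libraries lie apart from the control libraries in every row was a condition of the choice. Ccl8 is the rise in which IL-6 lies above IL-4.

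The promoter of a gene that STAT6 activates directly can hold its palindromic site, TTCNNNNGAA. RefSeq promoter windows (GRCm38.p6, 250 bases before to 50 after the start) were searched for it on both strands. Windows were found for 8922 of the tested genes, and 593 of these genes (6.65%) had the site. It was present in 45 of 491 genes called higher (9.16%) and in 52 of 789 called lower (6.59%). Among genes at least 8-fold higher it was in 12 of 107 (11.2%). Of the 12 largest rises, Fn1, Ocstamp, Ccl24 and Slc7a2 had no window and were not searched, and among the others the windows of Pdcd1lg2 and Tmem26 hold it, printed here 5′ to 3′ on the + strand with the site in capitals.
Pdcd1lg2 (chr19:29410669-29410968): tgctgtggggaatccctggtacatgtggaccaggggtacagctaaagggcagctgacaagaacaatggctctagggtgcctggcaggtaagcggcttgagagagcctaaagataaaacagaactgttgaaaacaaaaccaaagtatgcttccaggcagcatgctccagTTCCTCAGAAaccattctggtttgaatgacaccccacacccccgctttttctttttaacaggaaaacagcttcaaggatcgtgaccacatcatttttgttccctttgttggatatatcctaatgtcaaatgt
Tmem26 (chr10:68723496-68723795): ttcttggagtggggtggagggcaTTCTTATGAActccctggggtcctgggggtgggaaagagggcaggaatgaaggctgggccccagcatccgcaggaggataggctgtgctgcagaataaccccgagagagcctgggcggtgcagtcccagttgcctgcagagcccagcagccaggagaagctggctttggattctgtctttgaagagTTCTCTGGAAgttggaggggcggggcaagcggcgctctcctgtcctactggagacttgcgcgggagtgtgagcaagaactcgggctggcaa
In Pdcd1lg2 the site begins 82 bases before the start of the gene. Tmem26 has 2 sites, which begin 227 and 41 bases before it.

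The other motifs searched give the scale of these shares. The site of other STATs, TTCNNNGAA, searched separately from the first, was in 8.76% of genes called higher, 5.83% of those called lower and 8.18% of all, and in 11.2% of the genes at least 8-fold higher, the same share as for the STAT6 type. In the same order (higher, lower, all), an interferon response element, GAAANNGAAA, was in 4.28%, 5.70% and 3.95%. A site of the NF-κB type was in 2 of 491 genes called higher (0.407%), 10 of 789 called lower (1.27%) and 0.527% of all. The cyclic AMP response element TGACGTCA was in 3.05%, 1.14% and 3.61%. These are descriptions of letters in a 300-base window, not of binding.

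The 12 largest falls took several transcripts to under 1 FPKM in every IL-4 library. Gpr162, an orphan receptor, went from 28.7, 32.9 and 29.7 FPKM in Control #1 to #3 to 0.229, 0.318 and 0.0979 in IL-4 #1 to #3 (log2 fold change -6.66, SE 0.25, limma adjusted p = 2.28e-06). Cd4, the T-cell coreceptor that some myeloid cells also carry, lies beside it (Gpr162 at chr6:124858444-124863983, Cd4 at chr6:124864692-124888221) and went from 33.3, 36.2 and 34.3 to 0.348, 0.802 and 0.429 FPKM (-5.86). Neither gene overlapped between the IL-6 and control libraries, with IL-6 higher (means of 41.6 and 46.8 FPKM). P3h3, the next gene along at chr6:124841089-124857752, was chosen after its values were seen and fell from 5.03–6.17 to 0.378–0.514 FPKM.

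The falls included scavenger receptors. Marco, a receptor for bacteria and particles, went from 34.5, 43.2 and 25.3 FPKM to 0.198, 0.326 and 0.404, 111-fold lower, and stood at 95.5–138 FPKM with IL-6 (IL-4 minus IL-6 -8.14). Stab1, stabilin-1, a receptor for modified lipoproteins and other waste, fell from 236–342 to 2.604–7.99 FPKM (-5.65). Apoe, apolipoprotein E, was the most abundant of the 12 largest falls: it had 7918, 11075 and 9140.1 FPKM in controls and 307, 363 and 526 with IL-4, 23.5-fold lower (-4.58, SE 0.23, limma adjusted p = 8.56e-06). With IL-6 it stood at 5409.9–7102 FPKM. The separation of all 3 from the controls in every IL-4 library was a condition of their choice.

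Gpx3, a secreted glutathione peroxidase, fell from 73.6–86.6 to 2.16–3.31 FPKM and Igfbp4, a binding protein of insulin-like growth factors, from 42.9–52.4 to 1.92–2.25. Both had an intermediate level with IL-6, 15.3 and 8.99 FPKM, and IL-4 minus IL-6 was -2.55 and -2.07. Adgre4, an adhesion receptor related to Adgre1, fell from 6.43–13.1 to 0.122–0.198 FPKM, Fcnb, ficolin B, a lectin of the complement system, from 3.44–5.33 to 0–0.153, and Adra1a, an adrenergic receptor, from 2.75–4.67 to 0.0488–0.111. The short features Mir146 and Mir6403 had 4 to 13 and 5 to 16 fragments in the control libraries and 0 in the IL-4 libraries, at least 2.49-fold and 3.80-fold lower against a floor of 3 fragments a library. A library of polyadenylated RNA does not measure the mature miRNA.

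The genes called higher include transcripts of very high level. The 10 genes with the highest level in the IL-4 libraries among those called higher took up 1.32% to 1.59% of the summed TPM in controls and 13.2% to 16.0% with IL-4. Chil3, a chitinase-like lectin, had 246, 395 and 363 FPKM in controls and 13967, 15916 and 17926 with IL-4, and Retnla, a resistin-like secreted protein, reached 13044, 10230.0 and 24325. Cd74, Ctss, Lgals3, Ccl6, Rnase2a, Mmp12, H2-Eb1 and H2-Ab1 complete the 10. Mmp12, macrophage elastase, went from 90.6–152 to 1164–1463 FPKM, and Rnase2a from 0.496–0.706 to 1330.4–1733. Lgals3, galectin-3, stood at 1293, 1964 and 1917 FPKM in controls and at 2664, 3086 and 5463 with IL-4, and its call rests on IL-4 #3: its log2 fold change was 1.07 with all libraries and 0.76 without it.

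Secreted type 2 effectors moved in both directions. Of 14 tested, 6 were called higher and 7 lower, and the median log2 fold change was -0.933, below that of all genes. Retnla and Rnase2a, which were called higher, are not among the 14, so these counts do not cover all type 2 effectors. Beside Fn1, Ear2 and Chil3, the closely related Chil4 rose from 0.0202–0.0712 to 4.69–5.45 FPKM, and Ang2, an angiogenin-family ribonuclease with 0 FPKM in the controls, reached 1.34–1.95. Igf1, an insulin-like growth factor, went from 50.03–65.2 to 92.2–136 FPKM. Those lower included other members of the same families, named after their values were seen: Ear1 went from 3.57–6.76 to 0.859–1.96 FPKM, Rnase4 from 26.4–30.8 to 4.91–8.67, and Retnlg, a resistin-like gene of neutrophils, from 182, 349.7 and 320.4 to 37.6, 55.4 and 158. Il4, the gene of the cytokine itself, was at 2.79–4.46 FPKM in controls and 1.03–1.61 with IL-4, one of the 7 called lower. Il1rn, the IL-1 receptor antagonist, was not called (-0.52).

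Most genes of antigen presentation by MHC class II rose. Of the 15 tested genes 10 were called higher and 0 lower, with a median log2 fold change of 1.727, and the same counts were called without IL-4 #3 and with IL-4 #1 alone. A fit on whole fragments (limma's voom) covered 5 of the 15, without the class II chains, and called 2 of them higher, Ifi30 and Ctss. Cd74, the invariant chain that guides class II molecules, stood at 281, 382 and 354 FPKM in Control #1 to #3 and 4402, 4130.4 and 8732 in IL-4 #1 to #3, 16.98 times the control mean (4.01, SE 0.29, limma adjusted p = 4.54e-05). The α and β chains followed: H2-Aa went from 70.7–91.3 to 825–1192 FPKM, H2-Ab1 from 59.7–80.5 to 818–1564 and H2-Eb1 from 78.8–112 to 804–1497. The groups did not overlap in any of these 4 genes. Ciita, the transactivator that sets class II transcription, had 2.33, 1.12 and 1.84 FPKM in controls and 32.9, 18.9 and 3.28 with IL-4, and its log2 fold change of 2.84 was 3.80 without IL-4 #3. H2-DMa and H2-DMb1, which load peptides, rose by 2.55 and 2.99. The thiol reductase Ifi30 and the protease Ctss, which help to prepare the peptides, rose by 1.73 and 1.29. The promoter-binding subunits Rfxap (-0.06) and Rfxank (-0.41) were not called. Against IL-6, 9 of the 15 were higher with IL-4 and 0 lower, and for Cd74 the difference was 4.05.

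Class I presentation moved less. Of 24 tested genes 6 were called higher and 0 lower (median 0.645). Psmb10, an immunoproteasome subunit, went from 35.9–54.2 to 130.1–299 FPKM, and the nonclassical class I genes H2-Q7, H2-T23 and H2-Q4 rose by 1.48, 1.33 and 1.31. H2-Q genes share much of their sequence, so fragments may be split between them. The abundant B2m (0.06, SE 0.14) and H2-D1 (-0.03, SE 0.15) were not called. Among 22 genes of T-cell costimulation and checkpoints, 3 were called higher and 5 lower. Beside Pdcd1lg2, Cd200, a ligand that restrains myeloid cells, rose from 1.303–2.11 to 4.91–8.47 FPKM. Icosl, the ligand of the costimulator ICOS, fell from 5.57–7.01 to 0.635–1.17, and Havcr2, TIM-3, from 8.37–9.67 to 2.66–4.74, a call that was not made with IL-4 #1 alone. Without IL-4 #3 the list had 3 genes called higher and 3 lower, and after median-ratio rescaling 4 and 3. Its median log2 fold change was -0.692 with all libraries and -0.118 with IL-4 #1 alone, so its balance is not settled.

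Chemokines moved in both directions. Of 18 tested, 8 were called higher and 6 lower, and the same counts were called without IL-4 #3. Those higher were all CC chemokines: beside Ccl24 and Ccl8, Ccl7 rose from 5.26–8.97 to 90.6–135 FPKM, Ccl6 from 232–325 to 2256–2735, Ccl9 from 58.04–74.7 to 568–609, Ccl2 from 6.696–12.8 to 40.9–150.4, Ccl22 from 0.234–0.355 to 1.55–11.9 and Ccl12 from 0.533–1.68 to 3.43–3.502. Ccl12 was not called with IL-4 #1 alone. Ccl7 (chr11:82045712-82047525), Ccl12 (chr11:82101845-82103400) and Ccl8 (chr11:82115185-82116799) sit in one cluster, yet their order differs between cytokines, since Ccl7 was higher with IL-4 than with IL-6 by 2.93, while IL-4 minus IL-6 was -1.96 for Ccl8 and -2.29 for Ccl12.

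The 6 chemokines called lower are known from inflammation or platelets. Cxcl10, an interferon-induced chemokine for T cells, went from 5.699, 4.12 and 3.02 FPKM to 0.104, 0.2198 and 0.0556 (-4.29, SE 0.32, limma adjusted p = 5.61e-05). The log2 fold changes of Cxcl16, Cxcl2 and Pf4, which fell, were -1.83, -1.20 and -1.32, and those of the CC chemokines Ccl3 and Ccl4, which also fell, -1.86 and -1.51. Ppbp and Ccl5 were not called (-1.24 and -0.74). Against IL-6, 7 chemokines were higher and 10 lower with IL-4, with a median difference of -1.39. For Pf4 the IL-6 libraries stood at 999.9–2042 FPKM and the IL-4 libraries at 107–206. Pf4 is also a megakaryocyte marker, and 3 of the 6 genes of that list were called lower.

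**Figure D4:**
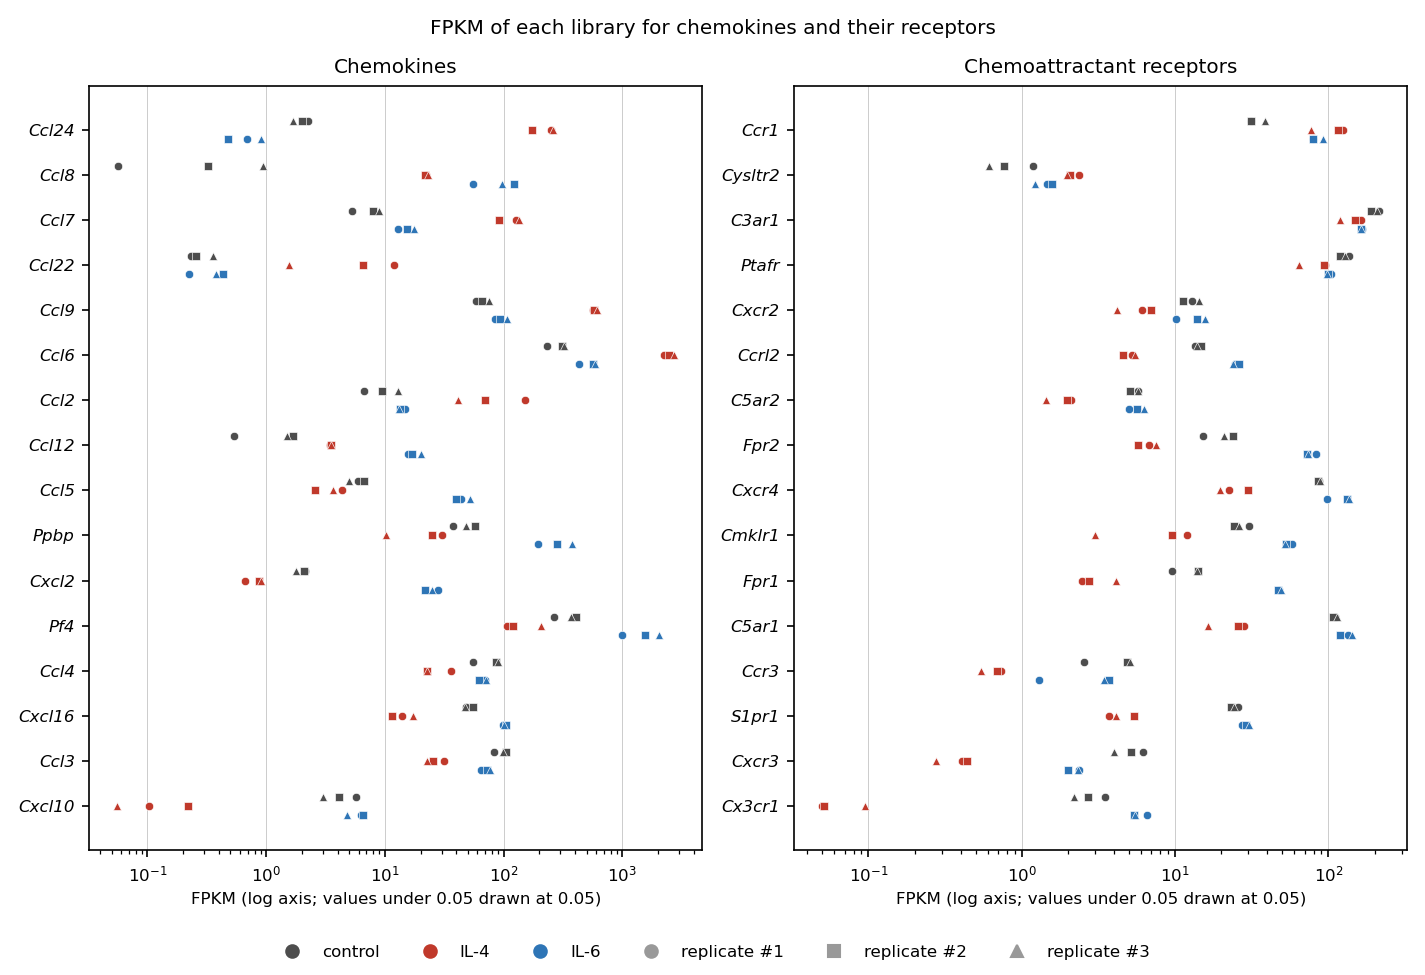
FPKM of each library on a log axis for called and abundant uncalled chemokines (left) and chemoattractant receptors (right); color marks control, IL-4 and IL-6 and symbol shape the replicate. CC chemokines from Ccl24 to Ccl12 lie above the controls with IL-4 and the inflammatory chemokines below, and among the receptors drawn Ccr1 and Cysltr2 lie above.

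Receptors for chemoattractants were mostly lower. Of 23 tested, 3 were called higher and 12 lower, with a median log2 fold change of -1.39, and 14 were lower and 0 higher than with IL-6. Cx3cr1, the fractalkine receptor, fell from 3.48, 2.702 and 2.202 FPKM to 0.0195, 0.0513 and 0.0946 (-4.23, SE 0.25, limma adjusted p = 1.39e-05), and Cxcr3, the receptor of Cxcl10, from 3.98–6.17 to 0.275–0.438. S1pr1, the receptor by which cells leave tissues along sphingosine phosphate, fell from 23.01–25.8 to 3.73–5.44 FPKM, and Ccr3, the receptor for Ccl24, from 2.56–5.07 to 0.544–0.733. The complement receptor C5ar1 and the formyl peptide receptors Fpr1 and Fpr2 fell by 2.27, 1.98 and 1.56. Ccr1, a receptor of inflammatory CC chemokines, and Cysltr2, a leukotriene receptor, rose by 1.62 and 1.27, and neither differed from IL-6 past the threshold. C3ar1 and Ptafr were not called (-0.52 and -0.62). Ccr3 is an eosinophil marker and Cxcr2, among the 12, a granulocyte marker, and of these marker lists 2 of 4 tested eosinophil genes and 10 of 12 granulocyte genes were called lower. Their part in these falls was not tested.

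Inflammatory mediators were lower where they were called. Of 23 tested, 9 were called lower and 0 higher (median -0.805). Without IL-4 #1, 1 was called higher, the acute-phase gene Saa3, named after its values were seen: it had 0.616, 0.9597 and 0.766 FPKM in controls and 0.168, 4.91 and 4.93 with IL-4, so IL-4 #1 lies below the controls and IL-4 #2 and #3 above. Ebi3, a subunit of IL-27 and IL-35, went from 45.1, 58.7 and 47.1 FPKM to 6.85, 7.22 and 9.87, and Il18 from 14.1–21.1 to 2.66–3.23. Hp, haptoglobin, fell from 24.7–43.4 to 6.49–13.04 FPKM and Il16 from 5.82–6.35 to 1.704–1.92. Il1b, named after its values were seen, had 3.76, 3.74 and 2.14 FPKM in controls and 0.767, 1.19 and 1.104 with IL-4, and it stood at 65.6–79.6 with IL-6. Tnfaip2 and Mif, the most abundant uncalled members, had log2 fold changes of -0.72 and -0.49.

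Microbial sensing genes fell in part. Of 45 tested, 13 were called lower and 1, Ripk2, higher, with a median of -0.530. Without IL-4 #3 the counts were 9 lower and 4 higher, with a median of -0.341. With IL-4 #1 alone the median was -0.222, so the fall of this list is weaker there. Cd14, the coreceptor for lipopolysaccharide, stood at 125, 141 and 109 FPKM in controls and 14.98, 19.3 and 34.05 with IL-4 (-2.53, SE 0.27, limma adjusted p = 0.000355). Tlr9, the receptor for unmethylated DNA, went from 20.7, 8.89 and 11.1 to 1.67, 1.57 and 0.0432 FPKM, and its log2 fold change of -4.09 was -2.90 without IL-4 #3. Lbp, which hands lipopolysaccharide to Cd14, fell from 2.29–2.95 to 0.342–0.519 FPKM and Mefv, pyrin, from 7.696–9.66 to 0.771–2.47. The inflammasome protease gene Casp1 had higher values with IL-4 without reaching the fold threshold (0.81, limma adjusted p = 0.00226), and Tlr13 was not called (-0.82).

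Interferon-stimulated genes fell more often than they rose. Of 48 tested, 19 were called lower and 2 higher (median -0.848), and 24 were lower than with IL-6 while 2 were higher. Ifit3, an antiviral RNA-binding protein, fell from 18.2, 22.8 and 21.4 FPKM to 1.93, 0.927 and 1.21 (-3.90), its neighbour Ifit3b from 2.96–3.62 to 0.0495–0.102 and Ifit1 from 4.27–5.12 to 0.472–0.958. Ifit3 and Ifit3b are close copies between which fragments may be split. Oas2, which starts RNA decay in infected cells, went from 5.41–6.95 to 0.242–0.414 FPKM. The exceptions were Gbp2, a guanylate-binding protein, at 23.4, 15.5 and 14 FPKM in controls and 262, 92.6 and 44.2 with IL-4, and Usp18, a brake on interferon receptors, at 1.97, 2.81 and 2.605 and 7.37, 7.27 and 6.305. Ifitm2 (-0.96) and Bst2 (-0.86) were not called with all libraries and were called lower without IL-4 #3.

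Transcription factors changed in nearly equal numbers, 14 of 85 higher and 15 lower, but 18 and 10 without IL-4 #3 and 16 and 8 with IL-4 #1 alone. Klf4, a zinc-finger factor known to act with STAT6 in M2 Mϕs, went from 1.203, 0.656 and 0.832 FPKM to 17.8, 26.6 and 12.2 (4.22, SE 0.31, limma adjusted p = 4.73e-05). Batf3, a partner of interferon regulatory factors in dendritic cells, rose from 4.55–5.97 to 32.8–84.9 FPKM. Irf4, Egr2, Bhlhe40, Myc and Pparg, all known from IL-4-treated Mϕs and named after their values were seen, rose by 2.83, 2.61, 2.52, 2.38 and 1.38. Spic, the factor of heme-recycling Mϕs, fell from 12.9, 16.3 and 13.4 to 0.663, 0.868 and 0.698 FPKM, and Maf, a factor of resident Mϕs, from 67.95, 43.2 and 48.7 to 6.905, 4.62 and 1.84. The lineage factors Cebpa (0.06, SE 0.15) and Spi1 (0.16, SE 0.12) were not called.

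The C-type lectins did not move as one. Of 19 tested 3 were called higher and 5 lower. Mgl2 and Clec4b1 (8.73–12.8 FPKM in controls and 49.1–126 with IL-4) rose. The sensors of fungal and dead-cell ligands Clec4n, dectin-2, and Clec4d fell from 155–198 to 18.7–21.4 and from 302–383 to 56.3–115 FPKM. Clec7a, dectin-1, stood at 224, 229.6 and 251 FPKM in controls and 520.4, 473 and 258 with IL-4. It was not called with all libraries (0.77, limma adjusted p = 0.0543) and was called without IL-4 #3 (1.08). Clec4a3 was not called (0.43).

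Receptors that clear dying cells and waste fell more often than they rose, 9 lower and 3 higher of 31 tested (8 and 5 without IL-4 #3). Beside Marco and Stab1, Gas6, the bridge between dying cells and TAM receptors, fell from 286, 302 and 269.8 FPKM to 23.8, 21.9 and 16.4, and Cd5l, a secreted scavenger protein, from 139–269 to 15.4–37.3. Axl, the TAM receptor that binds Gas6, fell by 2.73, and Pros1, the other bridge, rose by 1.59. Cd36, a receptor for fatty acids and oxidized lipoprotein, stood at 267, 278 and 389 FPKM in controls and 1027, 1107 and 628 with IL-4, and at 24.2–29.3 with IL-6. The abundant Tyrobp and Cd68 were not called (-0.51 and -0.83).

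Of 23 Fc receptor and complement genes, 8 were called lower and 1 higher (8 and 3 without IL-4 #3). The gene that rose is Itgax, the CD11c chain of complement receptor 4 and an abundant marker of activated myeloid cells: it had 19.6, 18.1 and 23.8 FPKM in controls and 374, 399 and 228 with IL-4 (3.99). Fcgrt, the neonatal Fc receptor, fell from 143–199 to 27.3–47.5 FPKM, Fcrl1 from 4.48–5.55 to 0.278–0.436 and Vsig4, a complement receptor of resident Mϕs, from 1.004–2.45 to 0.138–0.2001. C1qb and Fcer1g were not called with all libraries (-0.96 and -0.89) and were called lower without IL-4 #3. Of 14 lipid efflux genes 5 were lower and 1, Abcg1, was higher. Beside Apoe, its neighbour Apoc1 fell from 1.66–2.002 to 0.0443–0.337 FPKM, Abca9, a lipid transporter, from 4.64–10.6 to 0.339–2.105 and Mylip, which degrades the LDL receptor, from 27.2–36.1 to 2.96–8.27. Abca9 was no longer called when Control #1 or Control #3 was left out. Npc2 and Pltp were not called (0.30 and 0.49).

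Genes of cell fusion and osteoclasts rose more often than they fell. Of 18 tested, 8 were called higher and 3 lower (median 1.121), and 11 were called higher without IL-4 #3. Dcstamp, the fusion protein that acts with Ocstamp, went from 1.05, 0.914 and 1.25 FPKM to 41.4, 41.1 and 38.7 (5.12, SE 0.21, limma adjusted p = 3.01e-06). Ctsk, cathepsin K, the collagenase of osteoclasts, rose from 5.19–9.01 to 163–277 FPKM and Car2, a carbonic anhydrase, from 0.201–0.275 to 1.69–4.35. Acp5, the tartrate-resistant phosphatase, rose by 3.18. Ocstamp, Dcstamp and Ctsk were at 0.02197, 0.311 and 7.56 FPKM with IL-6, and 9 genes of the list were higher with IL-4 than with IL-6 and 3 lower. The proton pump subunit Tcirg1 and Cd9 were not called (0.39 and 0.82), though Cd9 was called without IL-4 #3.

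Proteases and matrix genes moved in both directions, with 13 of 42 higher and 10 lower. Mmp13, a collagenase, went from 2.35, 2.22 and 3.71 FPKM to 142, 129 and 107. F7 and F10, which encode coagulation factors VII and X, rose from 13.5–21.7 to 350.3–433 and from 8.77–11.8 to 83.8–103 FPKM, and F3, tissue factor, from 0.132–0.1804 to 1.18–2.13. Mmp14, the membrane-bound activator of other metalloproteases, fell from 29.04, 30.7 and 23.8 to 2.204, 2.497 and 1.59 FPKM and stood at 127–139 with IL-6. Spp1, osteopontin, went from 623–839.8 to 96.7–142 FPKM and Thbs1, thrombospondin, from 111–206 to 10.9–39.7, and both were above the controls with IL-6 (2472–3190.3 and 939–1048). Lgals1 and Cstb were not called (0.60 and 0.30). F10, F3, Spp1 and Thbs1 were named after their values were seen.

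Adhesion genes fell in 9 of 25 and rose in 3. Without IL-4 #3, 8 were called lower and 4 higher, and of the 3 rises only 1, Cdh1, stayed called. The list's median log2 fold change was -0.091 with all libraries and 0.165 without IL-4 #3. Cdh1, E-cadherin, which Mϕs need for homotypic contacts before fusion, rose from 0.438, 0.569 and 0.604 FPKM to 6.601, 10.4 and 5.07. The integrin chains Itga9 and Itgal fell from 2.17–2.98 to 0.0749–0.281 and from 18.2–35.4 to 1.87–6.101 FPKM, and Vcam1 from 5.64–18.1 to 0.989–2.66. Itgb2 was not called (0.95) and was called higher without IL-4 #3 (1.28). Of 53 lysosome genes 5 rose and 0 fell, Ctsk and Ctss among them with Atp6v0a1 (54.8–61.1 to 177–249 FPKM) and Ctsl (119.8–174 to 355–512). The called genes are 9.43% of the list, under the 14.1% among all tested genes. With an adjusted p alone 7 were higher and 14 lower, so the balance rests on the fold threshold. The list's median was -0.193, near that of all genes, and the abundant Psap (-0.08, SE 0.13) and Ctsd (0.01, SE 0.27) were not called.

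Arginine supply and use rose in selected steps, 5 of 24 genes higher and 1 lower. Arg1, the arginase gene passed over above, is not among the 24. The paper reports a robust rise of arginase-1 with IL-4. Beside Slc7a2, the general cationic transporter Slc7a1 rose from 1.62, 1.04 and 1.496 FPKM to 5.92, 10.9 and 4.48, and Aldh18a1, the first enzyme of proline synthesis, from 2.05, 2.63 and 2.69 to 8.03, 16.6 and 9.88. Ass1, which remakes arginine from citrulline, and Gatm, which starts creatine synthesis, rose by 1.78 and 1.59. Paox, a polyamine oxidase, fell from 11.6–12.8 to 3.196–4.13 FPKM. The polyamine regulators Sat1 and Oaz1 were not called (-0.34 and -0.12). Among 21 amino acid transporters 3 were called higher and 2 lower. Slc7a5 and Slc1a5, which carry leucine and glutamine, rose from 2.23–2.67 to 10.02–19.4 and from 6.96–8.303 to 24.4–39.4 FPKM, while Slc43a2 and Slc7a7 fell from 134–202 to 13.2–37.7 and from 20.8–23.1 to 2.85–4.52.

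Sterol and fatty acid synthesis rose in 12 of 38 genes and fell in 0 (median 0.839), and the strength of this result depends on IL-4 #3. Without it 23 were called, 25 with IL-4 #1 alone and 17 after median-ratio rescaling. Scd1, which desaturates fatty acids, had 0.847, 0.938 and 1.23 FPKM in controls and 20.3, 16.2 and 4.24 with IL-4. Scd2, another desaturase, had 9.88, 9.06 and 9.51 and 150.4, 114 and 39.1. In both genes the IL-4 libraries lie above all controls and IL-4 #3 lies nearest to them. Ch25h, which makes 25-hydroxycholesterol, had 0.0849, 0.0247 and 0 FPKM in controls and 1.604, 3.202 and 3.82 with IL-4, and IL-4 #3 was the highest of its libraries. Soat1 and Elovl1 were not called (-0.03 and 0.45). Against IL-6, 3 of the 38 were higher and the median difference was 0.10. With IL-6, Scd2 stood at 36.99–52.1 FPKM, above the controls.

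The lists of genes that burn fatty acids and sugars had median log2 fold changes of 0.157 to 0.347. Of all tested genes 14.1% were called. The share was 12.8% for fatty acid uptake and oxidation and 6.45% for the TCA cycle and itaconate. It was higher, 21.9%, for glycolysis and the pentose phosphate pathway. Of 39 genes of fatty acid uptake and oxidation 3 were called higher and 2 lower (median 0.157). Lpl, lipoprotein lipase, rose from 153–237 to 455–608 FPKM, Acsl4 from 7.48–13.6 to 14.3–26.5 and Ppargc1b, a coactivator of mitochondrial genes in M2 Mϕs, from 0.797, 0.485 and 0.414 to 4.69, 3.23 and 0.8101. The call of Ppargc1b was lost without any one of the libraries except IL-4 #3, and that of Acsl4 without any except IL-4 #3 and Control #1. Fabp3 fell from 5.81–7.86 to 1.403–3.08. Lipa and Plin2 were not called (-0.22 and 0.74). In glycolysis and the pentose phosphate pathway 4 of 32 were higher and 3 lower: Pfkp, Slc2a1 and Slc16a1 rose by 1.92, 1.31 and 1.28, Pfkfb3 fell by 1.38 on the log2 scale, and Aldoa and Pkm were not called (0.30 and 0.48). In the TCA cycle and itaconate list 1 of 31 rose and 1 fell, and the fall was that of Glul, glutamine synthetase, from 137–145 to 41.9–55.1 FPKM. Idh1 and Sdhd were not called (-0.06 and 0.46).

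Of 73 genes of oxidative phosphorylation 2 rose and 0 fell, Cycs, cytochrome c, by 1.20 and Atp5b, an ATP synthase subunit, by 1.09. Together they are 2.74% of the list, under the share among all genes, and Atp5b was not called with IL-4 #1 alone. The list's median profile was 0.16 and 0.28 in IL-4 #1 and #2 and 1.24 in IL-4 #3, on the scale of log2 difference from the control mean. Cox4i1, a short gene, had 163, 248 and 206 FPKM in controls and 192, 216 and 566 with IL-4, and was not called (0.50). Cox8a was not called either (0.68).

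Iron handling genes moved in both directions. Slc40a1, ferroportin, the exporter, fell from 159, 117 and 126 FPKM to 17.5, 9.51 and 4.33 (-3.87, SE 0.42, limma adjusted p = 0.000384), and Cp, ceruloplasmin, which oxidizes the exported iron, from 1.74–2.37 to 0.0966–0.177. Tfrc, the transferrin receptor, rose from 72.8, 58.2 and 71.1 to 383, 290.2 and 109 FPKM and Steap3, an iron reductase of endosomes, from 5.39–6.48 to 14.6–23.8. Slc11a2, which carries iron across membranes, and Fth1, the ferritin heavy chain, were named after their values were seen and fell by 1.24 and 1.10 on the log2 scale. Of 18 tested genes 3 were called higher and 5 lower, with the same counts without IL-4 #3. Tfrc was at 181–206 FPKM with IL-6 and did not differ from it past the threshold (0.24), and its call against control was lost without Control #2. Ftl1 and Hmox1 were not called (-0.24 and -0.35). Among 31 genes of oxidant production and defense, 2 were higher and 4 lower: beside Gpx3, Gstm1 fell from 209–265 to 63.8–94.9 FPKM, while Gpx1, the cytosolic peroxidase, rose from 206, 298 and 265 to 503, 572 and 1101 without being called in IL-4 #1 alone, and the cystine transporter Slc7a11 from 1.32–2.39 to 2.99–5.45. The call of Slc7a11 was lost without Control #2, Control #3 or IL-4 #2. Cyba and Prdx1 were not called (0.27 and 0.08).

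In the cell cycle list the IL-4 libraries disagree. Of 55 tested genes 3 were called higher and 0 lower, a share near the background, but 21 were called higher without IL-4 #3, 30 with IL-4 #1 alone and 10 after median-ratio rescaling. The median over members was 1.11 in IL-4 #1, 0.74 in IL-4 #2 and -0.39 in IL-4 #3. Ccne1, cyclin E1, which drives entry into S phase, stood at 1.25, 1.79 and 1.79 FPKM in controls and 5.07, 4.301 and 3.32 with IL-4, and Ube2c and Tpx2, of mitosis, rose from 2.23–4.12 to 7.98–8.87 and from 2.34–4.05 to 5.03–10.2. Top2a, named after its values were seen, had 5.33, 5.19 and 6.49 FPKM in controls and 15.4, 11.4 and 3.28 with IL-4, so IL-4 #1 and #2 lie above the controls and IL-4 #3 below. The call of Tpx2 was lost without Control #1 or IL-4 #2. Pcna and Stmn1 were not called (0.70 and 0.36). The difference between IL-4 #3 and the rest also followed gene length over all genes, as given above, and its part in this list was not tested.

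**Figure D5:**
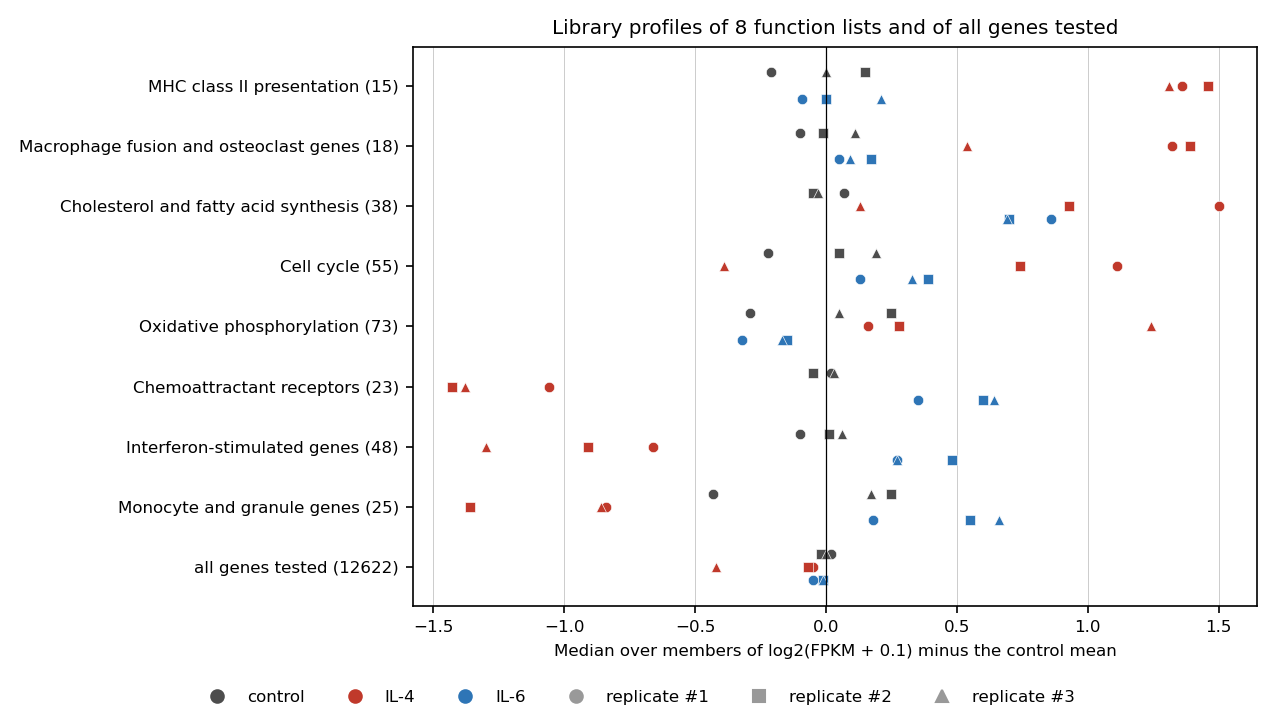
Median over the tested members of 8 function lists, and over all tested genes, of log2(FPKM + 0.1) minus the mean of the control libraries (horizontal axis), one point per library; color marks the group and symbol shape the replicate. The MHC class II medians span 1.31 to 1.46 and the chemoattractant receptor medians -1.43 to -1.06 in the IL-4 libraries, while for sterol synthesis, cell cycle and oxidative phosphorylation IL-4 #3 (triangle) lies apart from IL-4 #1 and #2.

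Of 39 ribosome biogenesis genes 4 rose and 0 fell (median 0.503), and 14 were higher with IL-4 than with IL-6 and 0 lower. The 4 are 10.3% of the list, where 14.1% of all tested genes were called and 5.40% were called higher. Without IL-4 #3, 3 were called higher, and 2 of the 4 stayed called. Gar1 and Rrs1 rose from 2.92–4.16 to 7.89–13.8 and from 9.43–10.7 to 24.3–26.6 FPKM, and Npm1 and Nhp2 were not called (0.30 and 0.88). In ER folding and the unfolded protein response 4 of 29 rose and 0 fell, and this 13.8% called is near the 14.1% of all tested genes. Trib3, a pseudokinase of the stress response, had 1.28, 1.88 and 1.596 FPKM in controls and 11.4, 40.2 and 72.4 with IL-4, and Atf4, the factor that turns it on, 74.9, 97.7 and 94.3 and 139.8, 233 and 308, both lowest in IL-4 #1 and highest in IL-4 #3. Pdia4, an ER folding enzyme, rose from 37.6–41.8 to 74.7–165 FPKM and Ero1l from 5.65–8.602 to 13.3–19.3. Atf4 and Ero1l were not called with IL-4 #1 alone, and Calr and P4hb were not called (0.06 and 0.24). Of 29 chromatin modifiers 0 rose and 1, Kdm5b, fell (-1.01), which was not called without IL-4 #3.

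Growth factors and their receptors moved both ways, 9 of 43 higher and 12 lower. The receptor genes Flt1 and Fgfr1, for vascular endothelial and fibroblast growth factors, rose from 0.0148–0.0401 to 0.959–5.36 and from 0.197–0.381 to 4.61–7.31 FPKM. For Flt1 the log2 fold change was 4.47 with all libraries and 5.18 without IL-4 #3. The IL-1 family receptors Il1rl2, for IL-36, and Il1rl1, for IL-33, rose from 0.519–0.791 to 4.697–9.96 and from 0.1596–0.265 to 0.669–3.56. Bmp2, a bone morphogenetic protein, fell from 4.95, 4.38 and 4.15 FPKM to 0.3703, 0.464 and 0.317. Csf2ra and Csf2rb, the GM-CSF receptor chains, were not called (0.86 and 0.79).

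Eicosanoid genes moved in both directions, and of 21 tested 5 rose and 6 fell. Ptgir, the prostacyclin receptor, rose from 3.81, 3.32 and 3.34 FPKM to 24.7, 45.4 and 33.5, and Ptger2 by 2.11, while Ptger4 fell from 2.8–3.78 to 0.433–0.715. Hpgds, which makes prostaglandin D, fell from 62.1, 42.6 and 50.5 to 6.397, 5.15 and 2.25 FPKM, and Hpgd, which degrades prostaglandins, from 4.204–7.33 to 0.209–0.431. Alox5ap and Pla2g15 were not called (-0.46 and -0.42). Purine receptors also divided, 3 of 21 higher and 4 lower: P2ry1 and the adenosine receptor Adora2b rose from 1.26–1.62 to 7.01–8.39 and from 1.06–1.37 to 5.36–6.26 FPKM, and P2ry13 and P2ry12 fell from 2.92–4.36 to 0.0991–0.278 and from 1.55–3.33 to 0.394–1.02. P2ry12 was not called with IL-4 #1 alone. P2ry6 and P2rx4 were not called (-0.26 and -0.40).

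In the BCL2 family and caspases 5 of 26 genes were higher and 2 lower. The antiapoptotic Bcl2a1d rose from 8.896, 12.5 and 10.4 FPKM to 25.5, 39.7 and 67.9 and Bcl2a1a from 0.735, 2.04 and 1.91 to 6.64, 19.6 and 51.7. These are near-identical copies between which fragments may be split. Bok, a proapoptotic relative, rose from 0.0181–0.0778 to 1.34–3.05 FPKM, and Bmf, a BH3-only killer protein, fell from 6.24–10.4 to 0.544–1.41. Mcl1 and Bax were not called (-0.47 and 0.10). Among 21 genes of MAP kinase feedback 5 rose and 1 fell: Dusp4, a nuclear phosphatase of ERK, rose from 0.931, 0.876 and 1.23 to 12.5, 13.9 and 4.63 FPKM, Spred2 by 1.59 and Rgs1 by 1.35, while Dusp7 fell by 1.48 on the log2 scale and was not called with IL-4 #1 alone. Dusp3 and Rgs2 were not called (-0.24 and -0.09).

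Monocyte and granule genes had one of the highest shares of falls, 13 of 25 lower and 3 higher (median -1.190), and 18 were lower than with IL-6. Elane, neutrophil elastase, fell from 35.4, 93.3 and 68.8 FPKM to 12.2, 8.05 and 8.403, and Camp, cathelicidin, from 108, 210.3 and 187 to 26.2, 23.1 and 30.7. Lyz1, lysozyme of Paneth cells and some myeloid cells, had 26.8, 32.8 and 27.9 FPKM in controls and 14.1, 1.31 and 2.78 with IL-4, a pattern in which IL-4 #1 stands apart as it does for the Paneth and goblet cell markers. Its call was lost without any one of the control libraries. The S100 genes divided: S100a8 and S100a9, of neutrophils and monocytes, fell by 1.45 and 1.19 (the groups overlap for S100a9), while S100a4, named after its values were seen, rose from 36.7–52.1 to 183–419 FPKM. S100a11 and Ly6e were not called (0.37 and 0.02). The fall of the granulocyte marker list given above shares genes with this list, and whether fewer granulocytes or less RNA per cell lies behind it cannot be told apart.

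The MS4A and Schlafen families fell in 6 of 17 and rose in 2. Ms4a6b and Ms4a6c, tetraspan membrane proteins of myeloid cells, fell from 25.6, 24.5 and 21.8 FPKM to 1.92, 1.52 and 0.749 and from 71.3, 62.6 and 62.97 to 12.8, 9.34 and 3.97, and Ms4a14 from 15.5–27.5 to 2.2–6.33. Ms4a8a rose from 0.111–0.383 to 2.298–3.28 FPKM. Slfn2 and Ms4a4a were not called (-0.24 and -2.45), and Ms4a4a, at 82.9, 71.3 and 6.98 FPKM with IL-4, was called lower without IL-4 #3. The other gene higher, Ms4a2, encodes a chain of the high-affinity IgE receptor and is one of the mast cell and basophil markers that rose.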

How the data were processed

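The authors deposited FPKM values for 53379 genes in 9 libraries of stranded polyadenylated RNA. The submitters' processing notes name STAR 2.4.2a and Cufflinks 2.2.1, and the methods name GRCm38 with an earlier GENCODE release than M21. Whether counting used strand is not given in the sources used here. The low FPKM values were whole multiples of 1 fragment over M21 exon lengths (100.00% of 125445 values under 500 fragments, within 0.05), so it is open which program and annotation gave the values, and library totals were read back from these steps. Differences were tested two-sided with limma 3.58.1 (R 4.3.3) on log2(FPKM + 0.1), with trend and robust moderation. The 3 groups of 9 libraries shared a single model, and p-values were adjusted by Benjamini-Hochberg over the 12622 genes with a mean of at least 0.5 FPKM. Values per library, means and ratios are FPKM. Promoter windows are from RefSeq. Summaries and figures used Python 3.11.15, pandas 2.3.3, numpy 2.4.6 and matplotlib 3.10.9.

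The series' description gives 3 mice, and the same numbers mark them in each group, which pairs the libraries. The deviations of same-numbered control and IL-4 libraries from their group means correlated at r = 0.534, -0.435 and 0.0783. Separate cultures are not described further, so p-values measure the spread between these libraries. Depth and intervals of fragments cover counting error only.

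The genes, the 39 function lists and the 15 marker lists were chosen with earlier results of these data known. The named genes include the 12 largest rises and falls that also held without IL-4 #3 and in IL-4 #1. For these, the 3 IL-4 libraries had to lie on the same side of all control libraries. The others are up to 4 called and 2 abundant uncalled members of each list, the receptor pathway, and the 10 most abundant genes called higher. Gene models named Gm or Rik were passed over. Any other member was named after its values were seen. A few members that the rule names are not reported here.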

Additional observations from a re-analysis of the deposited data

How the results depend on the processing

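The balance of higher and lower calls depended on the scaling: 681 and 1101 as reported, 861 and 849 after median-ratio rescaling and 868 and 888 after quantile normalization. In 9 of the 39 function lists the larger of both counts was the other under at least 1 alternative. Of the 681 genes called higher and 1101 called lower, a minimum of 5 FPKM left 342 and 479, and an adjusted p alone gave 1137 and 2056. A pseudocount of 1 gave 503 and 696, the 6 control and IL-4 libraries alone 572 and 810, and voom on whole fragments, which covers 11171 of the 12622 genes, 612 and 1072. Leaving out each control or IL-4 library in turn gave 580 to 886 higher and 870 to 1423 lower, the last 2 without control #3 and without IL-4 #1. With the mouse number as a replicate block the counts were 674 and 1111, with 662 and 1065 genes shared, and against IL-6 949 and 1625. Of the 240 genes named by rule, 0 lost or gained a call under the block, and median-ratio rescaling added 3 calls and removed 0. Leaving out 1 library removed at most 9 of their calls, among them Ppargc1b without any library but IL-4 #3, Acsl4 without any but IL-4 #3 and control #1, Lyz1 without any control, Slc7a11 without control #2, control #3 or IL-4 #2, Abca9 and P2ry12 without control #1 or #3, Lgals3 without these or IL-4 #3, Tpx2 without control #1 or IL-4 #2, Ero1l without control #2 or IL-4 #2, Tfrc without control #2, and Pfkfb3 and Atp5b without control #1. It added at most 9 calls, without IL-4 #3. Quantile normalization removed the calls of Ctss, Lgals3 and Atp5b. Genes named after their values were seen were recomputed only without IL-4 #3, with IL-4 #1 alone, with the block and with median-ratio rescaling. The cause of these changes was not tested. Against IL-6, where 937 genes were higher and 1534 lower with IL-4, a minimum of 5 FPKM left 491 and 642, an adjusted p alone gave 1765 and 2458, and voom gave 824 and 1444. Leaving out each of the 9 libraries gave 782 to 1104 and 1178 to 2010, the IL-6 libraries having been added to this after seeing the data. The fit with IL-4 #1 alone assumes that it varies like the other groups. Genes below about 0.5 FPKM were not tested.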
